A study of Mus musculus with 8 samples.

Results

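The ING genes (inhibitor of growth) are a small family of chromatin regulators, and all 5 members, Ing1, Ing2, Ing3, Ing4 and Ing5, were followed in the testes of mice that lack Ing2. The members were found by name: every probe set whose platform annotation gave a single symbol, current or former, of 1 of the 5 genes. This gave 5 probe sets of 35557 on the array, 1 for each gene, and the 5 genes were among 19938 genes measured in all. RNA came from whole testes of 5 Ing2-/- mice and 3 Ing2+/+ mice, each 2 to 3 months old, with 1 Affymetrix Mouse Gene 1.0 ST array for each mouse. The Ing2 allele was targeted in embryonic stem cells of 129/Sv origin, lost its second exon to the EIIa-Cre transgene, which acts in the early embryo, and was then crossed to C57BL/6J so that the Cre was bred out. Ing2-/- mice carry this deletion in all tissues and Ing2+/+ mice carry none. Because the breeding joined 129/Sv and C57BL/6J, either genotype is of mixed background.

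Every ING protein ends in a PHD finger, a zinc-binding fold that recognises histone H3 trimethylated at lysine 4 (H3K4me3), a mark of active promoters. Through this finger the proteins bring histone-modifying enzymes to chromatin: ING1 and ING2 sit in the Sin3 histone deacetylase complexes, ING3 in the NuA4/TIP60 acetyltransferase complex, ING4 in the HBO1 acetyltransferase complex and ING5 in both the HBO1 and the MOZ/MORF complexes. In the testis, histones are heavily acetylated before protamines replace them in elongating spermatids, so both kinds of complex are of interest in germ cells. The question asked of the arrays was whether the other members, and the genes of the complexes they belong to, differ in level when Ing2 is lost.

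Levels are deposited log2 values after robust multi-array averaging (RMA), so 1 unit is a 2-fold difference, and a change is the mean of Ing2-/- testes minus the mean of Ing2+/+ testes. A gene was called changed at an adjusted p under 0.05 by limma, the p-values of all 35557 probe sets being adjusted together by the Benjamini-Hochberg method. By this rule 1713 probe sets (4.82%) were called, and with 1 probe set per gene 992 of 19938 genes (4.98%) were called, 600 lower (3.01%) and 392 higher (1.97%) in Ing2-/- testes. The median level per array was 6.46 to 6.53 in Ing2-/- testes and 6.41 to 6.45 in Ing2+/+ testes. Replicate 3 of the Ing2-/- testes stood apart from the other 4, as shown with the cell type markers below, and without it 3286 genes (16.5%) were called, 8.72% of all higher and 7.76% lower.

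Of the 5 ING genes, Ing2 and Ing3 were lower in Ing2-/- testes and passed the test, and Ing1, Ing4 and Ing5 did not pass it. Ing2 and Ing3 were also the 2 members whose levels did not overlap between the genotypes, as was true of 31.6% of all genes in either direction and of 14.9% in the lower direction. The smallest p that an exact two-sided permutation of 5 against 3 arrays can give is 0.0179.

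Ing2, the targeted gene, was first examined in every array. Its level was 5.06, 5.64, 5.21, 5.29 and 5.25 in Ing2-/- testes, against 7.43, 7.60 and 7.34 in Ing2+/+ testes. All 5 Ing2-/- arrays lay below the lowest Ing2+/+ array, so no array went against its label. The mean was 5.29 ± 0.22 in Ing2-/- testes (SD, n = 5) and 7.46 ± 0.13 in Ing2+/+ testes (SD, n = 3), a log2 change of -2.16 (SE 0.127, limma adjusted p = 0.000395, exact permutation p = 0.0179). The signal that was left came to 22.3% of that in Ing2+/+ testes. This is a share of signal and sets no limit on the transcript left.

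Probe sets with no symbol had a median level of 5.54 to 5.62 in the Ing2-/- arrays and 5.47 to 5.51 in the Ing2+/+ arrays. Ing2 lay below that median in 4 of 5 Ing2-/- arrays and in 0 of 3 Ing2+/+ arrays. The position of its probes relative to the deleted exon was not examined here, so a shortened transcript and no transcript cannot be told apart.

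**Figure D1:**
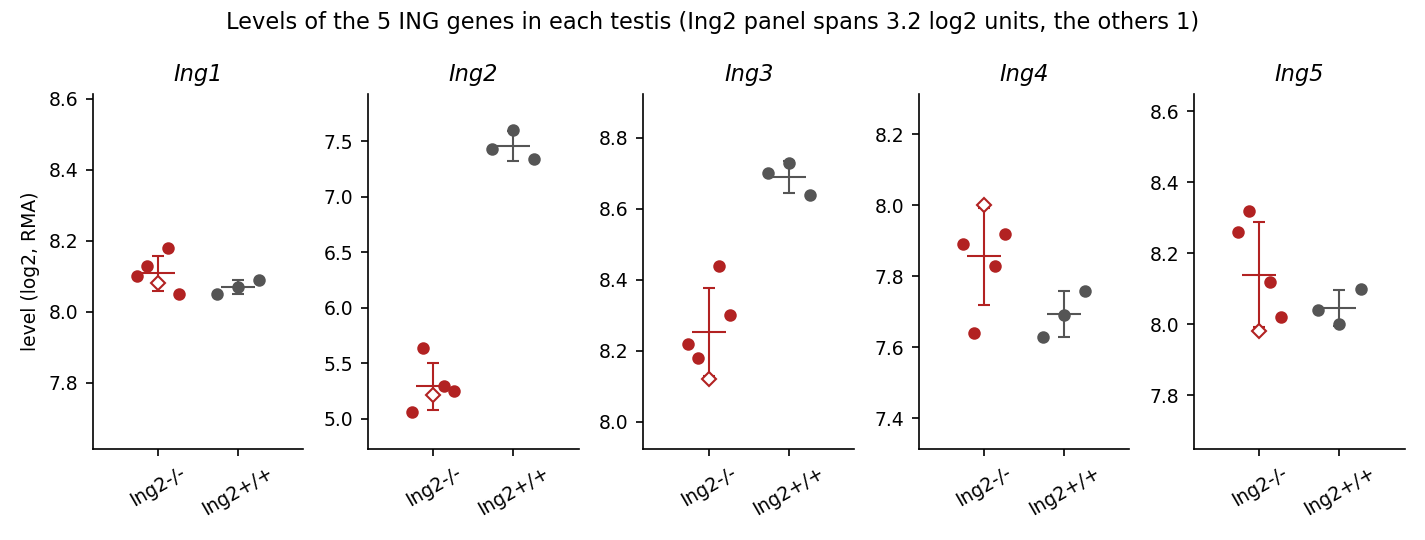
Log2 RMA level (vertical axis) of each ING gene in each testis, with Ing2-/- arrays (n = 5) left of Ing2+/+ arrays (n = 3), a bar for the group mean with its SD and replicate 3 of Ing2-/- as an open diamond. Ing2 and Ing3 are the genes whose points do not overlap between genotypes, and levels are not comparable from one gene to another because each probe set has its own response.

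Ing3, the member that belongs to the NuA4/TIP60 complex, was the other member called lower. Its level was 8.22, 8.18, 8.12, 8.44 and 8.30 in Ing2-/- testes, against 8.70, 8.73 and 8.64 in Ing2+/+ testes. The 5 Ing2-/- arrays all lay below the 3 Ing2+/+ arrays, with replicate 4 nearest to them. The mean was 8.25 ± 0.12 in Ing2-/- testes (SD, n = 5) and 8.69 ± 0.05 in Ing2+/+ testes (SD, n = 3), a log2 change of -0.44 (SE 0.0811, limma adjusted p = 0.0258, exact permutation p = 0.0179). The Ing3 signal in Ing2-/- testes was thus 73.7% of that in Ing2+/+ testes (95% confidence interval 64.9% to 83.7%). This is a share of RMA signal, and the interval holds for this scaling of the arrays only.

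The change of Ing3 was small among the genes called lower: of the 600, 445 fell further than Ing3 and 154 fell less. Its size depended little on single arrays, between -0.49 and -0.41 when each was left out in turn, but its call did. Ing3 stayed below an adjusted p of 0.05 without Ing2-/- replicate 2 (0.0499), replicate 3 (0.0137) or replicate 4 (0.016), and was at 0.0532 without Ing2-/- replicate 1, 0.0645 without Ing2-/- replicate 5 and 0.113, 0.117 and 0.0734 without Ing2+/+ replicate 1, 2 and 3 (limma). The call was also lost with each gene's own variance (adjusted p = 0.0696) and with arrays scaled to equal Sertoli markers, where the log2 change was -0.89 (adjusted p = 0.062) and the median over all genes -0.44. In the 5 leave-one-out fits without a call of Ing3, 0.201% to 2.37% of all genes were called. Its unadjusted p in the fit of all arrays was 0.000441, and 1.87% of all genes were lower with an unadjusted p under 0.001, the threshold of the methods.

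Promoter sequences are shown for Ing2, the deleted gene, and for Ing3, the member that fell with it. They are the 250 bases before the RefSeq transcription start on the mouse build GRCm38.p6, and the windows of all 5 genes were found in that table. Capitals mark a full cyclic AMP response element (TGACGTCA, the site of the CREB and CREM family, whose member CREM acts in spermatids) and a CCAAT box, searched on both strands (CCAAT or ATTGG). Ing2 lies on the minus strand, at chr8:47675160-47675409, and the first of 2 annotated starts of Ing3 follows chr6:21949321-21949570 on the plus strand.
Ing2: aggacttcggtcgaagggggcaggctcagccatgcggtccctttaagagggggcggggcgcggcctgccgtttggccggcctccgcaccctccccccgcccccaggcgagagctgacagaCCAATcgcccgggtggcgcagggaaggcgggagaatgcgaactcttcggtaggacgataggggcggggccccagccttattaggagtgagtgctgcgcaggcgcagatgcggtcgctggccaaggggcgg
Ing3: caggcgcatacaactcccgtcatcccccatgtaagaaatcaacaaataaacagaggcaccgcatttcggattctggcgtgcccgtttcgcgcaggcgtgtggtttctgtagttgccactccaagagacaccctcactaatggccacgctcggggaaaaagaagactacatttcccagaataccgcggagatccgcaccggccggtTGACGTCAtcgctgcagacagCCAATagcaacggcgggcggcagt

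The full TGACGTCA was found in the window of Ing3, with its first base 45 bases before the first start, and in that of Ing4. In Ing4 it lay at the far edge, with its first base 250 bases before the start, and the 30 bases from there are given for comparison (chr6:125039598-125039627, plus strand).
Ing4: TGACGTCAtgcctgtcgcagacacatattg
It was in none of the 5 windows of Ing1 nor in those of Ing2 and Ing5, and 1.55% of 32851 RefSeq promoter windows of this length held it. A CCAAT box stood in the windows of Ing2, Ing3 and Ing5 and in 3 of 5 of Ing1, against 33.8% of all windows, and a GC box (GGGCGG or CCGCCC) stood in every window of the 5 genes, against 32.7% of all. The matches describe these letters only.

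Ing1, which shares the Sin3 deacetylase complexes with Ing2, was at nearly the same level in both genotypes. It was 8.10, 8.13, 8.08, 8.18 and 8.05 in Ing2-/- testes, against 8.05, 8.07 and 8.09 in Ing2+/+ testes. The groups overlapped, and the log2 change of 0.04 (SE 0.0582) did not pass the test (limma adjusted p = 0.716, exact permutation p = 0.286). Its 95% confidence interval, -0.09 to 0.17, runs from 93.7% to 113% of the Ing2+/+ level, so a change of Ing1 as large as that of Ing3 lies outside it.

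Ing4, which directs the HBO1 acetyltransferase to H3K4me3, varied more. It was 7.89, 7.64, 8.0, 7.83 and 7.92 in Ing2-/- testes, against 7.63, 7.69 and 7.76 in Ing2+/+ testes. In 4 of 5 Ing2-/- arrays it lay above all Ing2+/+ arrays, and replicate 2 lay among them. The log2 change of 0.16 (SE 0.0873, 95% confidence interval -0.04 to 0.36) did not pass the test (limma adjusted p = 0.261, exact permutation p = 0.107).

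Ing5, the member found with both HBO1 and MOZ/MORF, was split among the Ing2-/- testes. It was 8.26, 8.32, 7.98, 8.12 and 8.02 in Ing2-/- testes, against 8.04, 8.0 and 8.10 in Ing2+/+ testes. Replicates 1, 2 and 4 of Ing2-/- lay above all Ing2+/+ arrays, and replicate 3 lay below them. The log2 change of 0.10 (SE 0.0912, 95% confidence interval -0.11 to 0.30) did not pass the test (limma adjusted p = 0.529, exact permutation p = 0.321). The direction of the 3 genes that did not pass depends on the scaling: with each array shifted so that its Sertoli markers had an equal median, the median over all genes moved to -0.44, and Ing1, Ing4 and Ing5 to -0.41, -0.29 and -0.36. Cyclic loess put Ing1 at -0.01.

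**Figure D2:**
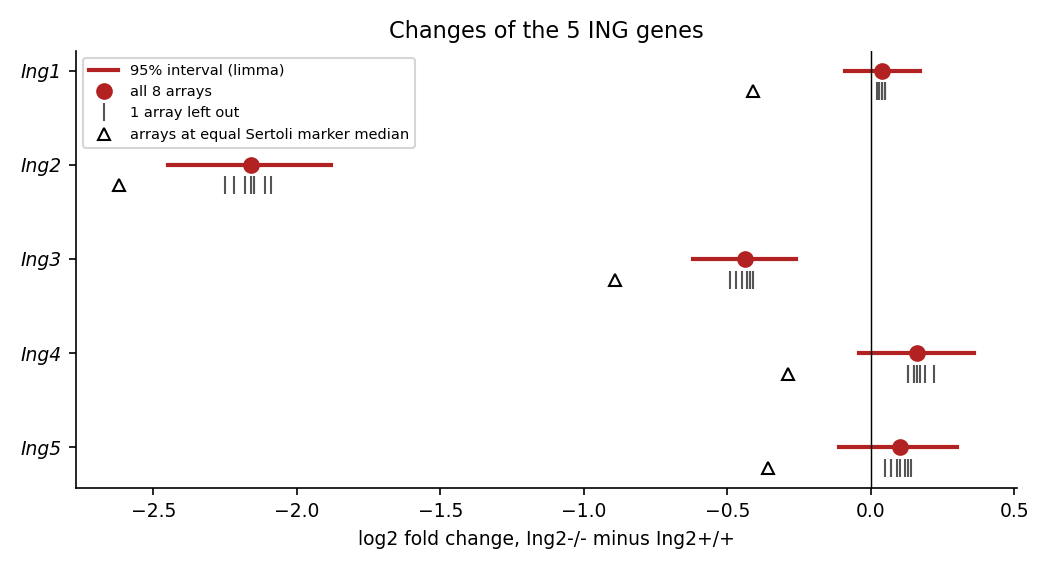
Log2 change, Ing2-/- minus Ing2+/+ (horizontal axis), of the 5 ING genes with the 95% confidence interval of the limma fit (5 and 3 arrays), with ticks for the change after leaving out each array in turn and triangles for the change once the arrays share 1 median of Sertoli markers. With 1 array left out Ing2 stays between -2.25 and -2.09 and Ing3 between -0.49 and -0.41, the shift turns Ing1, Ing4 and Ing5 below 0, and the intervals of Ing1, Ing4 and Ing5 include 0.

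Whether the members changed unequally was tested on the difference of their levels within each array, for all 10 pairs, by exact two-sided permutation with adjustment over the pairs. The 7 pairs that held Ing2 or Ing3 differed between genotypes, each with exact permutation p = 0.0179, the smallest possible, and adjusted p = 0.0255. Ing2 is the deleted gene, so the pairs that hold it were bound to differ. Counting them lowered the adjusted p of the other Ing3 pairs. Ing3 minus Ing1 was 0.04 to 0.25 in Ing2-/- testes, against 0.55 to 0.66 in Ing2+/+ testes, a difference of -0.48. Ing3 minus Ing4 was 0.12 to 0.61 in Ing2-/- testes, against 0.88 to 1.07 in Ing2+/+ testes, a difference of -0.60. Ing3 minus Ing5 was -0.14 to 0.31 in Ing2-/- testes, against 0.54 to 0.73 in Ing2+/+ testes, a difference of -0.54.

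Ing2 fell further than each of the others, with differences of -1.72 for Ing2 minus Ing3 and of -2.20, -2.33 and -2.26 for Ing2 minus Ing1, Ing4 and Ing5. The 3 pairs among Ing1, Ing4 and Ing5 did not pass (differences of 0.12, 0.06 and 0.07 for Ing4 minus Ing1, Ing5 minus Ing1 and Ing4 minus Ing5, with adjusted exact permutation p of 0.357, 0.556 and 0.75). The permutation test could not pass after adjustment with only 2 Ing2+/+ arrays, where the 7 pairs were at an adjusted p of 0.068.

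The genes with the array-by-array pattern most like that of Ing3 were found by the root mean square difference of the deviations from the Ing2+/+ mean over the 8 arrays. They were Rp1, a microtubule protein of photoreceptors (0.0395), Casr, the calcium-sensing receptor (0.0567), and Tlcd3a (0.06). Their log2 changes were -0.45, -0.38 and -0.41 (limma adjusted p = 0.021, 0.0252 and 0.0381). Rp1 stood at 4.09 to 4.38 in Ing2-/- arrays and 4.61 to 4.67 in Ing2+/+ arrays, below the median of probe sets with no symbol throughout. For Ing2 the nearest were Mdga2, a cell adhesion protein (0.287, log2 change -2.07, limma adjusted p = 0.000772, at 4.72 to 5.31 in Ing2-/- arrays and so below that median in each), 1700021F07Rik (0.411, log2 change -1.75) and Efcab1 (0.446, log2 change -1.78). All 6 were picked by likeness to a called gene, so their own calls add nothing to its call.

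Cell type markers moved with genotype beside Ing3. Each list was given a score per array, its genes' average deviation from their Ing2+/+ means. The score of 12 round spermatid markers was -0.90 to -0.15 in Ing2-/- testes and -0.01 to 0.01 in Ing2+/+ testes, and that of 12 pachytene spermatocyte markers was -0.51 to -0.07 in Ing2-/- testes and -0.04 to 0.05 in Ing2+/+ testes. The 12 elongating spermatid markers scored -0.50 to -0.07 in Ing2-/- testes and -0.04 to 0.04 in Ing2+/+ testes. Of the single markers, 1 of 12 on the pachytene list (Hspa2) and 1 of 12 on the round spermatid list (Catsper1) were called lower. On the elongating spermatid list 0 of 12 were called lower, and of all genes 3.01% were. At an unadjusted limma p under 0.05, 3 pachytene, 5 round spermatid and 2 elongating spermatid markers were lower, against 13.5% of all genes. The 12 spermatogonia markers lay the other way, with a score of 0.03 to 0.38 in Ing2-/- testes and -0.02 to 0.02 in Ing2+/+ testes and 11 of 12 genes above 0. On that list 0 were called higher and Sohlh2 was called lower. At an unadjusted limma p under 0.05, 3 of its 12 markers were higher, against 16.5% of all genes.

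Scores of Sertoli, Leydig and macrophage markers lay above 0 in every Ing2-/- array, and that of epididymal markers did not. The 12 Sertoli cell markers scored 0.28 to 1.07 in Ing2-/- testes and 0 to 0.01 in Ing2+/+ testes. Limma called 0 of them, all 12 had a change above 0 and 10 were higher at an unadjusted p under 0.05, against 16.5% of all genes. The 8 Leydig cell markers measured scored 0.31 to 1.21 in Ing2-/- testes and -0.05 to 0.03 in Ing2+/+ testes, with 5 called higher, against 1.97% of all genes. Macrophage markers had a median log2 change of 0.35 and those of the epididymis 0.10, with 0 called by limma on either list. At an unadjusted limma p under 0.05, 6 of 11 and 0 of 9 were higher, against 16.5% of all genes, and 1 epididymal marker was lower. The epididymal score ran from -0.12 in replicate 1 to 0.92 in replicate 4 of Ing2-/-. Every marker on the 4 germ cell lists stood above the median of probe sets with no symbol in all arrays. That median is no detection limit, so the presence of each germ cell type was not tested.

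Replicate 3 of Ing2-/- had the lowest score of the pachytene and round spermatid lists and the highest of the Sertoli list, and it also had the lowest Ing3, -0.57 from the Ing2+/+ mean. The deviations of Ing3 in replicates 1, 2, 4 and 5 were -0.47, -0.51, -0.25 and -0.40. Without replicate 3 the change of Ing3 was -0.41 (limma adjusted p = 0.0137). In whole tissue, fewer cells of a type and less RNA per cell cannot be told apart, and the part of cell composition in the change of Ing3 was not tested.

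**Figure D3:**
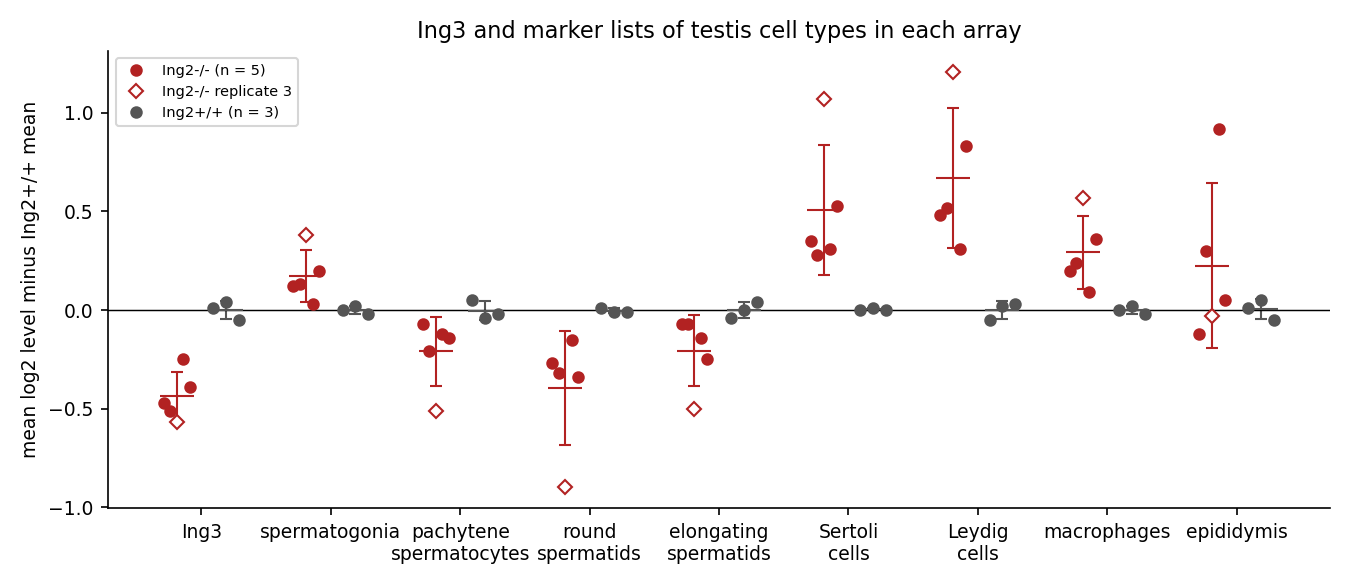
Scores of the marker lists, and the deviation of Ing3, from the Ing2+/+ mean in each array (log2 units), with Ing2-/- arrays (n = 5) left of Ing2+/+ arrays (n = 3), a bar for the group mean with its SD, and replicate 3 of Ing2-/- as an open diamond. Scores of pachytene and of round and elongating spermatid markers lie below those of Ing2+/+ arrays in every Ing2-/- array, as does Ing3, and Sertoli and Leydig scores lie above.

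The genes that work with ING proteins were examined in 5 lists with 67 different genes. Only Kmt2a was called, as 1 of 67, against 4.98% of all genes, and the random variance model also called Kmt2a alone. This count turned on single arrays: 14 of 67 were called without Ing2-/- replicate 3, against 16.5% of all genes in that fit, and 0 without Ing2-/- replicate 1, 2 or 5 or any 1 of the Ing2+/+ arrays. At an unadjusted limma p under 0.05, 18 of the 67 were higher and 9 lower, against 16.5% higher and 13.5% lower of all genes. The median log2 change over the 67 was 0.11, with 41 above 0 and 26 below, beside 0.02 over all genes.

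Among the Sin3 deacetylase genes, the complex of ING1 and ING2, 0 of 16 were called in limma, against 4.98% of all genes. At an unadjusted limma p under 0.05, 7 were higher and 0 lower, against 16.5% higher and 13.5% lower of all genes. The median log2 change of the 16 was 0.20. Hdac2, 1 of the 2 deacetylases of the complex, was at 9.90, 9.88, 10.29, 10.05 and 10.10 in Ing2-/- testes, against 9.75, 9.65 and 9.66 in Ing2+/+ testes, a log2 change of 0.36 that did not pass (SE 0.0983, limma adjusted p = 0.0685). Without Ing2-/- replicate 3, Hdac2 passed with a log2 change of 0.30 (limma adjusted p = 0.0323). In that fit 3 of the 16 genes were called higher, against 8.72% of all genes. Hdac1, the other deacetylase, was at 10.82, 10.82, 10.64, 10.90 and 10.81 in Ing2-/- testes, against 10.86, 10.92 and 10.89 in Ing2+/+ testes.

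The genotypes overlapped in Hdac1 and its log2 change of -0.09 did not pass (95% confidence interval -0.25 to 0.07, limma adjusted p = 0.442). Sin3a, the scaffold, was at 9.37 to 9.69 in Ing2-/- testes and 9.25 to 9.32 in Ing2+/+ testes. Its groups did not overlap, as was true of 31.6% of all genes in either direction. The log2 change of Sin3a, 0.22, did not pass the test (limma adjusted p = 0.115). Brms1l, a subunit of the complex, had a log2 change of 0.64 (limma adjusted p = 0.0615), and of 0.51 without Ing2-/- replicate 3 (limma adjusted p = 0.0124).

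The NuA4/TIP60 genes, the complex of ING3, lay mostly on the other side of 0. The median log2 change was -0.21, with 12 of 17 genes below 0, against 9120 of 19938 of all genes. Limma called 0 of the 17, against 4.98% of all genes. At an unadjusted limma p under 0.05, 6 were lower and 2 higher, against 13.5% lower and 16.5% higher of all genes. Actl6a, an actin-related subunit, was at 9.44, 9.39, 9.01, 9.47 and 9.27 in Ing2-/- testes, against 9.72, 9.70 and 9.78 in Ing2+/+ testes. Its log2 change of -0.42 did not pass (SE 0.106, limma adjusted p = 0.0568), nor did that of Morf4l1, a chromodomain subunit (-0.34, limma adjusted p = 0.0623). Without Ing2-/- replicate 3 both passed, at log2 changes of -0.34 and -0.27 (limma adjusted p = 0.0158 and 0.0168). In that fit 3 of the 17 genes were called lower and 1 higher, against 7.76% lower and 8.72% higher of all genes. Kat5, the catalytic acetyltransferase, was at 9.13, 9.02, 8.53, 9.0 and 8.93 in Ing2-/- testes, against 9.22, 9.22 and 9.24 in Ing2+/+ testes, with the lowest value in replicate 3 (log2 change -0.31, SE 0.125, limma adjusted p = 0.156).

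The HBO1 and MOZ/MORF genes, the complexes of ING4 and ING5, had a median log2 change of 0.12. Limma called 0 of 10, against 4.98% of all genes. At an unadjusted limma p under 0.05, 1 was higher and 0 lower, against 16.5% higher and 13.5% lower of all genes. Without Ing2-/- replicate 3 the median of the list was 0.05 and Jade1 was called higher, as 1 of 10, against 8.72% of all genes. The 3 catalytic acetyltransferases did not pass: Kat7 (HBO1) had a log2 change of -0.13, Kat6a (MOZ) of 0.12 and Kat6b (MORF) of 0.19, with limma adjusted p of 0.459, 0.313 and 0.379. Jade1, a scaffold of the HBO1 complex, had a log2 change of 0.44 (limma adjusted p = 0.146), and Meaf6, a subunit shared with NuA4/TIP60, of -0.24 (limma adjusted p = 0.19).

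The list of other readers of H3K4me3, PHD-finger proteins apart from the Tudor-like Spin1, had a median log2 change of 0.11. Limma called 0 of 14, against 4.98% of all genes. At an unadjusted limma p under 0.05, 4 were higher and 2 lower, against 16.5% higher and 13.5% lower of all genes. The median of the list was 0.07 without Ing2+/+ replicate 1. Without Ing2-/- replicate 3, 2 readers were called higher and 1 lower, against 8.72% higher and 7.76% lower of all genes. Phf2 and Kdm5a, both of the JmjC histone demethylase family, were nearest to the threshold, with log2 changes of -0.42 and 0.22 (limma adjusted p = 0.0749 and 0.0765). Kdm5a was counted only among the readers, and not among the 11 listed enzymes that write or erase H3K4 methylation. Of the 11, Kmt2a was called higher and 0 were called lower, against 1.97% higher and 3.01% lower of all genes. At an unadjusted limma p under 0.05, 4 were higher and 1 lower, against 16.5% higher and 13.5% lower of all genes. The median log2 change of the 11 was 0.28. Without Ing2-/- replicate 3 their median was 0.17 and 3 were called higher, against 8.72% of all genes.

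Kmt2a, a methyltransferase that deposits H3K4 methylation, was at 8.32, 8.26, 8.83, 8.22 and 8.49 in Ing2-/- testes, against 7.84, 7.85 and 7.78 in Ing2+/+ testes. All Ing2-/- arrays lay above all Ing2+/+ arrays, with replicate 3 highest. Groups without overlap were seen in 31.6% of all genes in either direction. The log2 change of Kmt2a was 0.60 (SE 0.133, limma adjusted p = 0.0428). Without replicate 3 the change was 0.50 (limma adjusted p = 0.00812). The call was lost when Ing2-/- replicate 1, 2 or 5 or any of the Ing2+/+ arrays was left out. It was also lost with a trended, robust prior (adjusted p = 0.0509), with each gene's own variance (adjusted p = 0.114) and with an equal Sertoli marker median, where the log2 change was 0.15 (adjusted p = 0.497). The Sertoli and Leydig scores given above were also higher in every Ing2-/- array than in any Ing2+/+ array, and their part in the change of Kmt2a was not tested.

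**Figure D4:**
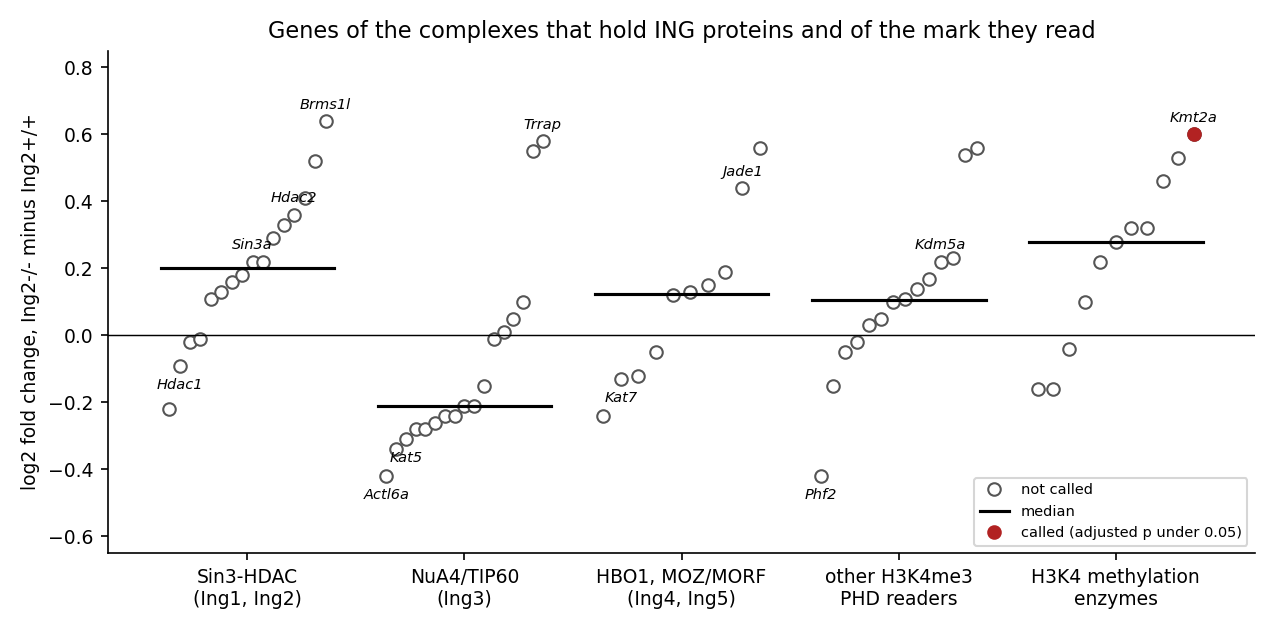
Log2 change, Ing2-/- minus Ing2+/+ (5 and 3 arrays), of the genes on each partner list, 1 point for each gene, with the median of the list as a bar. Kmt2a is the gene that passed the test, and the list medians run from -0.21 for NuA4/TIP60 to 0.28 for the H3K4 enzymes.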

How the data were processed

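Total RNA was extracted from whole testes with Trizol and hybridised to 1 array for each mouse. The authors made the deposited log2 values by RMA in Affymetrix Expression Console and summarised them at the gene level with a stated NetAffx release; for Expression Console a version was not given in the sources used here. RMA gives arrays a common distribution, so levels are relative within a testis and carry no trace of a change in total RNA. The scanner files were not used here.

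Probe sets with 1 symbol were named from the platform annotation, updated through gene identifiers with the GRCm38.p6 gene table (21698 of 21789 matched), and the brightest stood for a gene. Under this rule 2 Leydig and 1 epididymal markers were not analysed here. The genotype contrast was fitted over all 8 arrays without covariates by lmFit and eBayes of limma 3.58.1 (R 4.3.3), which was tested on simulated data. Single values were compared by exact two-sided permutation of the 56 splits of the arrays, on the absolute difference of means (scipy 1.17.1). The number of arrays limits the precision. The deposited log2 values were also tested after cyclic loess, after a shift that made the median Sertoli marker equal between arrays, with the random variance model and unadjusted p under 0.001 of the methods, and with other variance settings, filters and left-out arrays.

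The members and lists were chosen with earlier results of these data known. Named genes were the 5 ING genes, up to 6 called members of each partner list or else the 2 with the smallest p, the catalytic and scaffold genes Hdac1, Hdac2, Sin3a, Kat5, Kat7, Kat6a and Kat6b, and the 3 genes most like each called ING gene. Meaf6 and Jade1 were named under the smallest p, and the single called markers Sohlh2, Hspa2 and Catsper1 after their values were seen.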

Additional observations from a re-analysis of the deposited data

Results flagged for a closer look

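In 4 of the 33 sets of 5 Ing2-/- values examined, 1 array lay far from the other 4 by Dixon's test, and in all 4 that array was replicate 3. Chance flags about 1 in 20 independent sets. These sets are not independent, since they share the same 5 arrays and Jade1 is also part of the HBO1 and MOZ/MORF score. The ratio of the gap to the whole range was 0.775 for the level of Jade1, a scaffold of the HBO1 complex, and 0.73 for the level of Morf4l1, a subunit of NuA4/TIP60. It was 0.763 for the score of the HBO1 and MOZ/MORF list and 0.748 for the score of the round spermatid markers. None of the 5 ING genes had such an array.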

How the results depend on the processing

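The fall of Ing2 was called in all 8 fits that left out an array (-2.25 to -2.09) and under every other alternative that gave it a value except the replicate block; the filter on level left Ing2 out. Leaving out each array gave -0.49 to -0.41 for Ing3, 0.02 to 0.05 for Ing1, 0.13 to 0.22 for Ing4, 0.05 to 0.14 for Ing5, 1 to 2 ING genes called, 49 to 5006 of all probe sets (1713 with all arrays) and 0 to 14 partner genes; the list medians ranged over 0.16 to 0.23 (Sin3), -0.25 to -0.15 (NuA4/TIP60), 0.05 to 0.16 (HBO1 and MOZ/MORF), 0.07 to 0.12 (readers) and 0.17 to 0.33 (H3K4 enzymes). Within-array differences gave -0.52 to -0.45 for Ing3 minus Ing1, -0.66 to -0.53 for Ing3 minus Ing4 and -0.59 to -0.48 for Ing3 minus Ing5. Ing4 minus Ing5 ranged from -0.01, without Ing2-/- replicate 3, to 0.16. Replicates 1 to 3 of both genotypes share a number, but the labels pair no mice, and deviations of same-numbered arrays correlated at -0.057, 0.184 and 0.006. With the number as a block, 0 probe sets were called by limma, so 0 ING and 0 partner genes were. Yet 7980 probe sets had an unadjusted limma p under 0.05 (9880 without the block). Ing2 changed by -2.15 (adjusted p = 0.0612) and Ing3 by -0.52 (adjusted p = 0.112). Ing2-/- replicates 4 and 5 have no Ing2+/+ array of their number, so the blocked contrast rests on replicates 1 to 3 of each genotype. The loss of calls cannot be told apart from this loss of arrays. Of the Ing2+/+ arrays, only replicate 2 correlated best with its own number. Replicate 1 correlated best with Ing2-/- replicate 5 (0.139) and replicate 3 with Ing2-/- replicate 1 (0.144).

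Shifting arrays to an equal Sertoli marker median moved the median of all genes to -0.44, against 0.02, so Ing1, Ing4 and Ing5 turned to -0.41, -0.29 and -0.36 and Ing3 to -0.89 (adjusted p = 0.062). Relative to that median the 5 genes were at 0.02, -2.18, -0.46, 0.15 and 0.08 in order of number, as without the shift. This setting called 1 ING gene, 0 partner genes (the partner list medians of 0.20, 0.12, 0.11 and 0.28 turned to -0.25, -0.33, -0.35 and -0.17, and the -0.21 of NuA4/TIP60 to -0.67) and 810 probe sets, and its calls over all genes were 3 higher and 352 lower. Cyclic loess put Ing1 at -0.01 and called 4 partner genes, with 289 genes higher and 904 lower over all, against 392 and 600. With each gene's own variance Ing3 stayed at -0.44 but missed the threshold (adjusted p = 0.0696), leaving 1 ING gene, 0 partner genes and 184 probe sets. Levels above the median or probe sets with 1 symbol gave 5 partner genes each, and the first of them 1 ING gene, since it leaves out Ing2. Array weights, which were 0.212 for Ing2-/- replicate 3, called 18 partner genes and 6565 probe sets. A trended, robust prior called 0 partner genes, and the unadjusted p under 0.001 of the methods 0 partner genes and 954 probe sets. The cause of these shifts was not tested. On single probe sets, nearness to the median of probe sets with no symbol limits Ing2 in Ing2-/- arrays.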

Other observations

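Without replicate 3 of Ing2-/-, 14 of the 67 partner genes were called by limma, 10 higher and 4 lower, against 8.72% higher and 7.76% lower of all genes in the same fit. Those higher were Hdac2, Brms1l and Sinhcaf of the Sin3 complex, Trrap, the large scaffold of NuA4/TIP60, Jade1, the readers Kdm7a and Spin1, and the methyltransferase genes Kmt2a, Kmt2c and Setd1a. Those lower were Morf4l1, Actl6a and Yeats4 of NuA4/TIP60 and Phf2. Trrap had a log2 change of 0.45 (adjusted p = 0.00992), Kdm7a of 0.41 (adjusted p = 0.0233), Kmt2c of 0.40 (adjusted p = 0.0259) and Yeats4 of -0.22 (adjusted p = 0.0459). Sinhcaf, Trrap, Kdm7a, Spin1, Kmt2c, Setd1a and Yeats4 are named here after their values were seen.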
